A study of Chlamydomonas reinhardtii with 12 samples.

Results

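Transcript levels were examined for 7 genes of *Chlamydomonas reinhardtii*, a unicellular green alga: *LCIB*, *LCIC*, *LCID* and *LCIE*, which make up the LCIB family of low-CO2-inducible proteins, and *CIA5* (also called *CCM1*), *CAS1* and *LCR1*, which encode regulators of the CO2 concentrating mechanism (CCM). The genes were chosen by identifier for this shared role and not by a cut on their values, though earlier results of these data were known. They are 7 of the 17741 genes in the count table. All 7 had more than 1 CPM (the count scaled to library size) in at least 4 libraries and were among the 14251 genes tested. The wild type (WT) was strain CC-125, and the *phot* mutant was 1 line that lacks *PHOT1*, the gene of the blue-light photoreceptor phototropin. Its complemented line was not analysed here, so the mutation and other differences between the strains cannot be told apart. Both strains were grown in Tris-acetate-phosphate medium (TAP), moved to Sueoka's high salt medium (HSM), which holds no acetate, and acclimated there to low light (LL, 5 µmol photons m-2 s-1). Sampling took place just before a shift to 300 µmol photons (high light, HL) in the same unit and again after 60 min of it. The light shift and the passing of that hour therefore cannot be told apart. Stranded mRNA was sequenced from 3 libraries in each of the 4 groups WT LL, WT HL, *phot* LL and *phot* HL, which the study describes as biological replicates.

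The CCM lets algal cells take up inorganic carbon and raise the CO2 concentration around Rubisco in the pyrenoid, a compartment of the chloroplast. LCIB and LCIC form a complex in the chloroplast stroma that gathers around the pyrenoid when CO2 is very scarce, where it is thought to recapture CO2 that leaks out. LCIB belongs to a group of proteins related to carbonic anhydrases, and *lcib* mutants grow poorly in air. LCID and LCIE are relatives of LCIB whose function is less well known. CIA5 is the master regulator through which most low-CO2-inducible genes are switched on, LCR1 is a MYB transcription factor downstream of it, and CAS1 is a calcium-binding thylakoid protein needed to keep several CCM genes expressed.

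Levels are given as CPM after TMM scaling (trimmed mean of M-values). The letters A, B and C tell the 3 libraries of a group apart and match no library of one group to one of another. Differences are log2 fold changes ± SE from edgeR's quasi-likelihood test over all 12 libraries, with Benjamini-Hochberg adjustment of p across the 14251 genes and a threshold of 0.05. Total counts ranged from 27136674 to 33906264 per library. *PHOT1* served as the check of the labels and was lower in *phot* than in WT by a log2 fold change of -6.24 in LL and -5.74 in HL. The TMM factors lay between 1.09 and 1.23 for the 6 *phot* libraries, against 0.66 to 0.863 for WT LL and 0.885 to 1 for WT HL, so that comparisons between genotypes rested on the scaling more than the light responses of *phot* did. In the bulk cultures, fewer cells with a transcript and less of it per cell cannot be told apart.

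**Figure D1:**
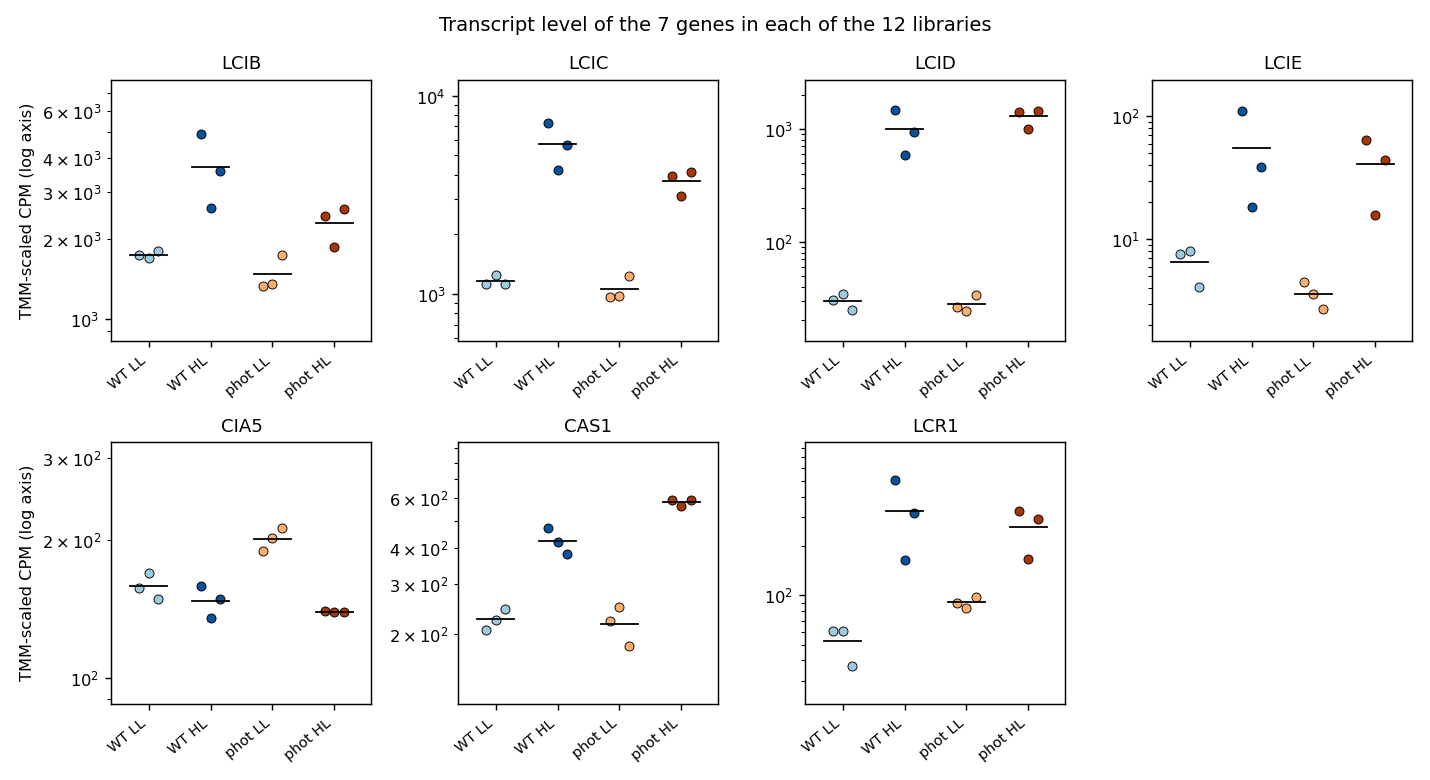
TMM-scaled CPM (log axis) of the 7 genes in the 12 libraries, with 1 panel per gene, 1 point per library in the order A, B, C, and a line at the mean of each group. All HL libraries lie above all LL libraries of the same genotype for *LCIB*, *LCIC*, *LCID*, *LCIE*, *CAS1* and *LCR1*, while *CIA5* stays between 135 and 212 CPM.

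*LCIB* (Cre10.g452800, chromosome 10, 4608866 to 4611901) rose in HL in both genotypes and ended lower in *phot* than in WT. In WT its CPM was 1731, 1700 and 1798 in LL and 4915, 2603 and 3579 in HL. In *phot* it was 1325, 1351 and 1742 before and 2439, 1857 and 2576 after the shift. The LL and HL libraries did not overlap in either genotype, and every *phot* HL library lay below every WT HL library. The rise was 1.09 ± 0.20 in WT (edgeR, adjusted p = 0.000209) and 0.64 ± 0.20 in *phot* (adjusted p = 0.0139). Without library A of WT HL, the highest of all, the rise in WT was 0.64, and the rise in *phot* was not called in the edgeR fits without *phot* LL A (0.54, adjusted p = 0.0726), *phot* LL B (0.58, 0.0538), *phot* HL A (0.56, 0.0578) or *phot* HL C (0.52, 0.0737).

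*LCIC* (Cre06.g307500, chromosome 6, 8466076 to 8469153), the partner of LCIB, rose further than *LCIB* in value in both genotypes. The 3 libraries held 1124, 1243 and 1122 CPM in WT LL and 7260, 4242 and 5644 CPM in WT HL. The corresponding values in *phot* were 962, 975 and 1232 CPM in LL and 3934, 3110 and 4140 CPM in HL. As for *LCIB*, the 2 light conditions were fully separate in each genotype, and all *phot* HL libraries were lower than all WT HL libraries. The log2 rise was 2.30 ± 0.19 in WT (edgeR, adjusted p = 5.73e-08) and 1.82 ± 0.19 in *phot* (adjusted p = 1.6e-06).

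The ratio of *LCIB* to *LCIC* counts within a library does not depend on how libraries are scaled. Under LL it was 1.54, 1.37 and 1.60 in WT and 1.38, 1.39 and 1.41 in *phot*. Under HL it was 0.677, 0.614 and 0.634 in WT and 0.620, 0.597 and 0.622 in *phot*. *LCIB* thus had more counts than *LCIC* in all 6 LL libraries and fewer in all 6 HL libraries. The 2 genes span nearly the same length, 3036 and 3078 bases, so the order is the same per length. On the log2 scale the ratio was lower in HL by a difference of -1.23 in WT and -1.18 in *phot*, a change of 2.34-fold and 2.27-fold (exact permutation test, two-sided, p = 0.1 each, the smallest that 3 against 3 libraries allow, and 0.171 after adjustment over 12 ratio tests). Between the genotypes the ratio differed by -0.11 in LL (exact p = 0.4) and -0.06 in HL (exact p = 0.3), and the libraries overlapped. The SD of the log2 ratio in *phot* HL was 0.033, while the SD of the log2 CPM was 0.25 for *LCIB* and 0.22 for *LCIC*. The ratio also varied less than either gene in WT HL (SD 0.072, against 0.46 and 0.39) and *phot* LL (0.020, against 0.22 and 0.20), but not in WT LL (0.12, against 0.042 and 0.084).

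**Figure D2:**
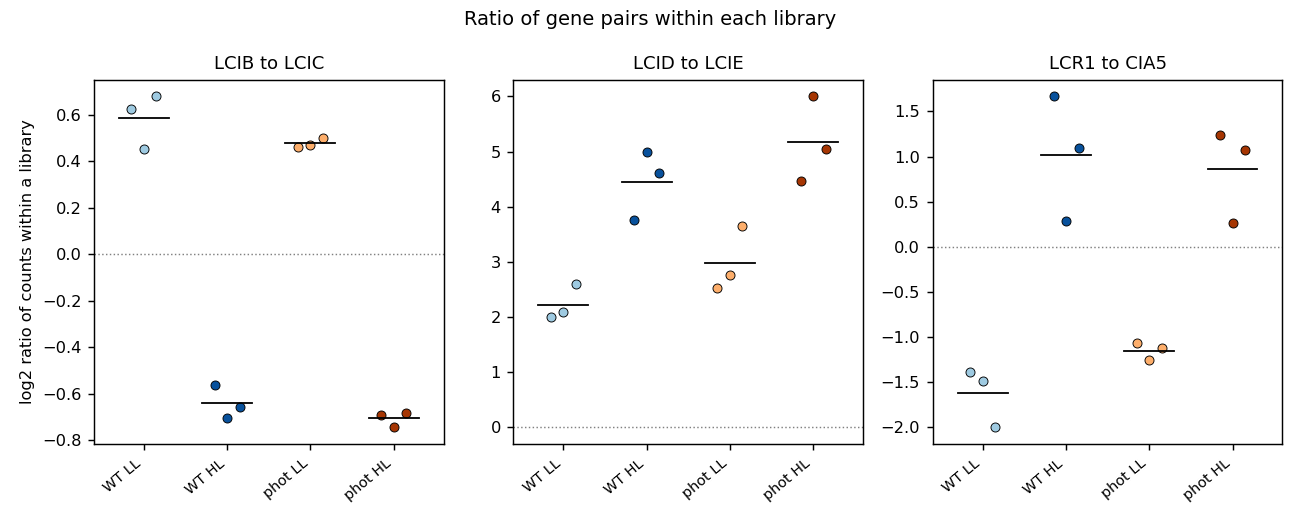
Log2 ratio of the counts of *LCIB* to *LCIC*, *LCID* to *LCIE* and *LCR1* to *CIA5* in each library (3 points per group, line at the group mean, dotted line at equal counts). The *LCIB* to *LCIC* ratio is above equality in the 6 LL libraries and below it in the 6 HL libraries, with group means from 0.59 in WT LL to -0.71 in *phot* HL.

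*LCID* (Cre04.g222800, chromosome 4, 2620453 to 2624280) had the largest fold change of the 7 genes in both genotypes. In WT LL its libraries held 30.3, 34.3 and 24.5 CPM, and in WT HL they held 1479, 590 and 937 CPM. In *phot* LL the values were 26.1, 24.2 and 34.0 CPM, and in *phot* HL they were 1422, 1005 and 1449 CPM. The genotypes overlapped in LL and in HL, and in each genotype the lowest HL library was far above the highest LL library. The log2 rise was 5.07 ± 0.31 in WT (edgeR, adjusted p = 2.52e-09) and 5.52 ± 0.32 in *phot* (adjusted p = 6.24e-09), and the difference between them was 0.45 ± 0.37 (adjusted p = 0.331). Without WT HL A, the highest library of its group, that difference was 1.00 with an adjusted p of 0.0105, and *LCID* was higher in *phot* than in WT in HL by 0.73 (edgeR, adjusted p = 0.00692).

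*LCIE* (Cre04.g223250, chromosome 4, 2687849 to 2690582) was the scarcest member and the most variable. It was measured at 7.62, 8.06 and 4.06 CPM in WT LL and 110, 18.4 and 38.4 CPM in WT HL. In *phot* it stood at 4.54, 3.57 and 2.69 CPM in LL and 64.2, 15.7 and 44.0 CPM in HL. The HL libraries of 1 group differed by 5.95-fold in WT and 4.1-fold in *phot*, and still lay above all LL libraries of their genotype. The log2 rise was 3.06 ± 0.60 in WT (edgeR, adjusted p = 0.000304), with a value of 1.90 without WT HL A, and 3.51 ± 0.61 in *phot* (adjusted p = 0.000204). The lowest LL count was 77 in WT and 90 in *phot*, so both groups were well above a count of 3.

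*LCID* and *LCIE* lie in a stretch of 76497 bases of chromosome 4 together with *CCP2*, a gene of the mitochondrial carrier family, *CAH2*, a gene of a periplasmic carbonic anhydrase, and the genes Cre04.g223100 and Cre04.g223300. *LCID* lies 91 bases from *CCP2*, and *LCIE* lies 128 bases from Cre04.g223300. Where related copies share sequence, reads could have been split between them or dropped in the counting, so the value of each single copy is uncertain, and with the counts of *LCID* and *LCIE* summed the rise was 4.86 in WT and 5.39 in *phot*. The ratio of *LCID* to *LCIE* counts averaged 4.67 in LL and 21.9 in HL in WT, and 7.90 and 36.0 in *phot*. It was higher in HL in every library of each genotype, by 2.23 on the log2 scale in WT and 2.19 in *phot* (exact permutation p = 0.1 each, adjusted 0.171).

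The neighbours did not share 1 pattern. *CCP2* rose by 6.01 ± 0.53 in WT and 7.69 ± 0.58 in *phot*, Cre04.g223100 by 2.98 ± 0.16 and 5.09 ± 0.18, and Cre04.g223300 by 6.49 ± 0.32 and 9.95 ± 0.37 (edgeR, adjusted p at most 9.73e-08 for each). *CAH2* fell by 3.26 in WT and fell by 1.39 in *phot* (edgeR, adjusted p = 4.51e-10 and 8.17e-06). In LL the 4 neighbours were all lower in *phot*, by log2 fold changes of -2.74 for *CCP2*, -2.21 for *CAH2*, -1.79 for Cre04.g223100 and -2.76 for Cre04.g223300 (edgeR, largest adjusted p = 0.000175). Of all tested genes 72.3% were called in this comparison, 28% as lower in *phot*. *LCID* and *LCIE*, in the same stretch, differed between the genotypes in LL by -0.08 ± 0.27 and -0.88 ± 0.63, and neither passed the test. *LCIE* was called as lower in *phot* in a fit of the LL groups alone (-0.88, edgeR, adjusted p = 0.00441) and in one without library A of both HL groups (-1.07, adjusted p = 0.0301).

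**Figure D3:**
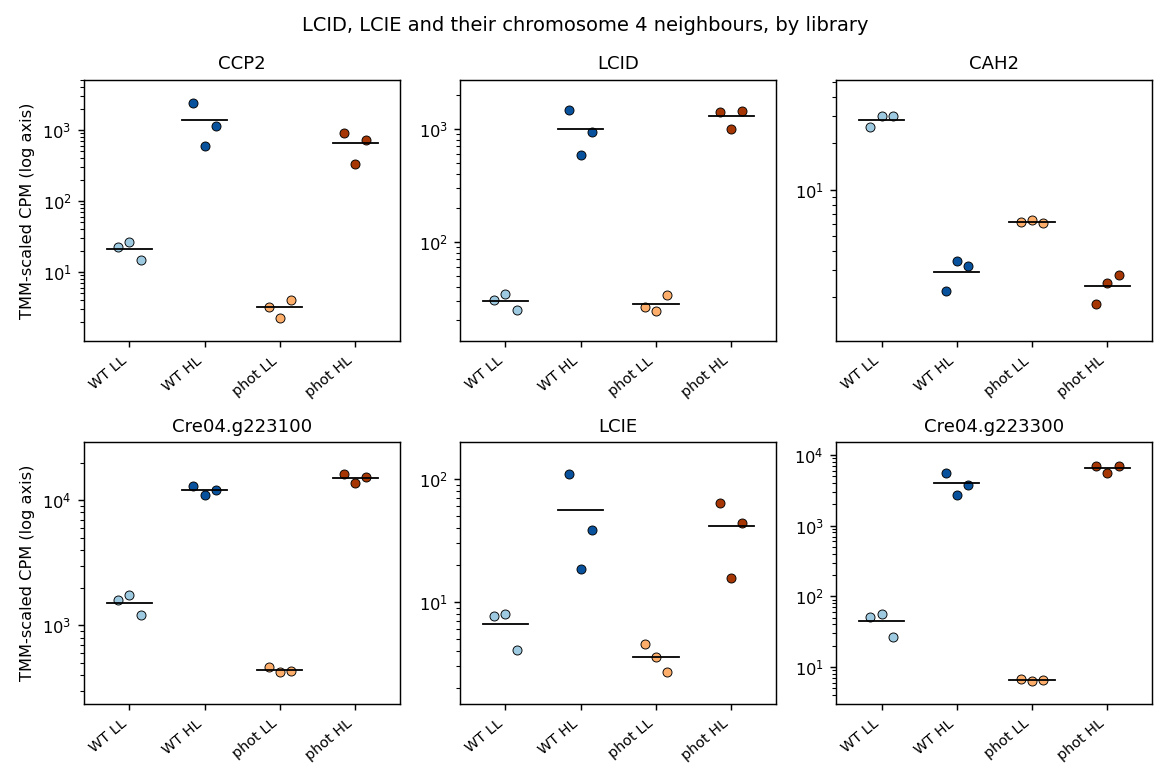
TMM-scaled CPM (log axis) of *LCID*, *LCIE* and the other 4 genes of their chromosome 4 list in the 12 libraries, with 1 point per library and a line at each group mean. In LL, *CCP2*, *CAH2*, Cre04.g223100 and Cre04.g223300 are lower in every *phot* library than in every WT library, whereas the *LCID* libraries of both genotypes lie between 24.2 and 34.3 CPM.

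*CIA5* (Cre02.g096300, chromosome 2, 3907698 to 3914283) was the 1 member that did not rise in HL. Its CPM was 157, 169 and 148 in WT LL and 159, 135 and 149 in WT HL, and the groups overlapped. In *phot* it was 189, 202 and 212 in LL and 139.8, 139.0 and 139.4 in HL, with no overlap. The change was -0.10 ± 0.10 in WT (edgeR, adjusted p = 0.36), and *CIA5* fell by 0.53 in *phot* (SE 0.10, adjusted p = 0.000356). The value in WT was -0.34 with upper-quartile factors (edgeR, adjusted p = 0.00437) and -0.23 in DESeq2 (adjusted p = 0.0193), both past the threshold, and 0.15 with library totals alone (edgeR, adjusted p = 0.303). It also passed in edgeR fits without WT HL A (-0.34), *phot* LL A (-0.29), *phot* LL C (-0.29), *phot* HL A (-0.28), *phot* HL B (-0.28) or *phot* HL C (-0.28).

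*CAS1* (Cre12.g497300, chromosome 12, 3364450 to 3368154) rose in both genotypes and reached a higher level in *phot*. In WT it had 206, 224 and 245 CPM in LL and 472, 420 and 384 CPM in HL. In *phot* it had 221, 248 and 181 CPM in LL and 593, 564 and 592 CPM in HL. The LL groups overlapped, and every *phot* HL library lay above every WT HL library. The rise was 0.92 ± 0.13 in WT (edgeR, adjusted p = 1.33e-05) and 1.43 ± 0.13 in *phot* (adjusted p = 4.33e-07).

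*LCR1* (Cre09.g399552, chromosome 9, 5235190 to 5239232) had a higher mean in *phot* in LL, a difference near the threshold, and ended in the same range in both genotypes. Its LL libraries held 60.1, 60.4 and 37.1 CPM in WT against 90.0, 84.2 and 97.2 CPM in *phot*. Its HL libraries held 505, 164 and 318 CPM in WT against 329, 167 and 293 CPM in *phot*. The LL groups did not overlap, as for 78.5% of all tested genes, and the *phot* HL values all lay inside the range of WT HL. The LL difference was called (edgeR, adjusted p = 0.0442), but not with median-of-ratios factors or in 10 of the 12 fits without 1 library. *LCR1* rose in HL in WT (edgeR, adjusted p = 6.41e-06) and in *phot* (adjusted p = 0.00107), by fold changes that differed by -1.10 ± 0.46 on the log2 scale (adjusted p = 0.0573). This difference was -1.28 without WT HL B (edgeR, adjusted p = 0.00559) and -0.50 without WT HL A (adjusted p = 0.297). It was also called with library totals (-1.31, edgeR, adjusted p = 0.0268) and in limma voom with group weights (-1.05, adjusted p = 0.0468). The rise in WT was 2.01 without WT HL A against 2.64 with it. The ratio of *LCR1* to *CIA5* counts averaged 0.324 in WT and 0.450 in *phot* under LL, and went above equality in every HL library, to between 1.22 and 3.18 in WT and between 1.21 and 2.36 in *phot*. In LL the ratio was 1.39-fold higher in *phot*, with no overlap (exact permutation p = 0.1, adjusted 0.171).

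Of the 7 genes, 6 rose in WT, where *CIA5* did not pass the test, and 6 rose and 1, *CIA5*, fell in *phot*. Among all tested genes 73.9% were called in WT, 38.9% as higher and 35.1% as lower, and 58.9% were called in *phot*, 31.2% as higher and 27.7% as lower. The LL and HL libraries did not overlap for 6 of the 7 genes in WT, against 73.2% of all tested genes, and for 7 of 7 in *phot*, against 72.6%. The median log2 fold change of the 7 genes was 2.30 in WT and 1.54 in *phot*, while the medians over all tested genes were 0.05 and 0.03. Among all genes called in WT, 52.6% were higher, a share that became 41.4% when upper-quartile factors were used and 65% when library totals were.

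**Figure D4:**
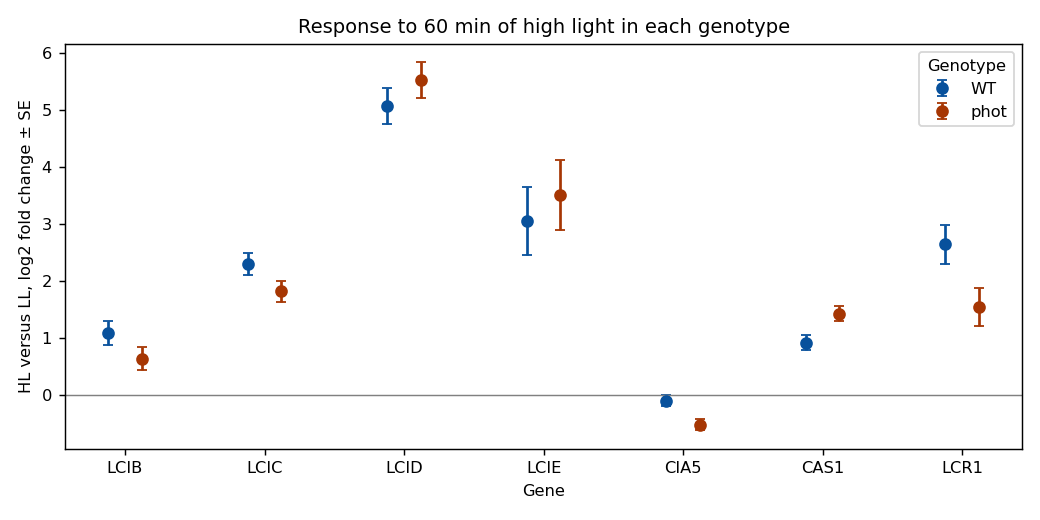
Log2 fold change from LL to HL (± SE from the edgeR fit) of the 7 genes in WT and in *phot*, 3 libraries per group. Values run from -0.10 for *CIA5* to 5.07 for *LCID* in WT and from -0.53 to 5.52 for the same genes in *phot*.

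The HL libraries of 1 group differed in the same order for most of the genes. Library B of WT HL had the lowest CPM of its group for 6 of the 7 genes, all but *CAS1*, and library A had the highest for 7 of 7. Library B of *phot* HL had the lowest for 7 of 7, and library A the highest for 4 of 7. The highest library exceeded the lowest in WT HL by 3.07-fold for *LCR1*, 2.51-fold for *LCID*, 1.89-fold for *LCIB* and 1.71-fold for *LCIC*, and by 1.18-fold for *CIA5* and 1.23-fold for *CAS1*. The share of all tested genes with such an order was not counted, so it cannot be called particular to the 7. Over genes, WT HL A and B had the lowest correlation of log2 CPM (0.975) of the 12 within-group pairs. In WT HL, *HLA3*, *LCI1*, *LCIA*, *CCP2* and *RHP1* also had A highest and B lowest. Of the carbonic anhydrases, *CAH3*, *CAH4* and *CAH5* had this order, *CAH2*, *CAH6*, *CAH7* and *CAH8* had the reverse, and *CAH9* had neither. No label separates these libraries from one another, and what set the order was not tested.

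In LL, 2 of the 7 genes (28.6%) differed between the genotypes, *LCR1* and *CIA5*, both higher in *phot*. Of all tested genes 72.3% were called, 44.3% as higher in *phot* and 28% as lower. The *phot* and WT libraries did not overlap for these same 2 genes, against 78.5% of all tested genes. The difference was 0.34 ± 0.10 for *CIA5* (edgeR, adjusted p = 0.00585) and 0.78 ± 0.33 for *LCR1* (adjusted p = 0.0442). Neither call held with median-of-ratios factors (0.19 and 0.63, edgeR, adjusted p = 0.119 and 0.102), and *CIA5* missed the threshold in 7 of 12 fits lacking 1 library (without WT HL A or B, *phot* LL A or C, or any *phot* HL library; 0.13 to 0.20 there). *LCR1* missed it in 10 of the 12, all but those without WT HL A or WT HL B, with values from 0.55 to 0.89 over the 12. The values of the other 5 genes were -0.24 ± 0.20 for *LCIB*, -0.14 ± 0.18 for *LCIC*, -0.08 for *LCID*, -0.88 for *LCIE* and -0.06 ± 0.13 for *CAS1*, with adjusted p-values from 0.221 to 0.792 in edgeR. For *LCIB*, the fits without WT HL A, WT HL B or *phot* LL C gave -0.43, -0.43 and -0.56, all called as lower in *phot* (edgeR, adjusted p = 0.028, 0.0308 and 0.0457). The median of all tested genes was lower too, at 0.04 in each of these fits against 0.22 with all libraries.

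The median of all tested genes in the LL comparison was 0.22 with TMM and 0.06 with median-of-ratios factors, and it reached 0.28 with upper-quartile factors and 0.79 when only library totals were used. Relative to that median, the member values hardly moved: *CIA5* was 0.12, 0.12, 0.12 and 0.11 above it under these 4 scalings, and *LCR1* was 0.56, 0.57, 0.56 and 0.53 above it. *LCIB* was below it by a difference of -0.46, -0.46, -0.46 and -0.46, and *LCIE* by -1.10, -1.10, -1.10 and -1.13. *LCIC*, *LCID* and *CAS1* were also below it with TMM, by -0.36, -0.30 and -0.28. Among all genes called in LL, 61.2% were higher in *phot*, and 81.4% with library totals.

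In HL, *LCIB* and *LCIC* were lower in *phot*, by log2 fold changes of -0.69 ± 0.20 and -0.62 ± 0.18 (edgeR, adjusted p = 0.00647 and 0.00737), and *CAS1* was higher, by 0.46 ± 0.13 (adjusted p = 0.00499). The *phot* and WT libraries did not overlap for these 3 genes, against 75.7% of all tested genes. Of all tested genes 73.5% were called, 38.1% as higher in *phot* and 35.4% as lower, against 3 of the 7 genes (42.9%). All 3 calls held in each of the 12 fits without 1 library, with *LCIB* between -0.93 and -0.46 (-0.46 without WT HL A), *LCIC* between -0.83 and -0.43 and *CAS1* between 0.38 and 0.51. With library totals alone, *LCIB* (-0.36, edgeR, adjusted p = 0.0697) and *LCIC* (-0.29, adjusted p = 0.126) were no longer called. The remaining values were 0.37 ± 0.26 for *LCID*, -0.42 ± 0.53 for *LCIE*, -0.08 ± 0.10 for *CIA5* and -0.32 ± 0.32 for *LCR1*, with adjusted p-values from 0.216 to 0.478 in edgeR, and 1 library of WT HL decided the value of *LCR1*, which was -0.68 without B (adjusted p = 0.0248) and 0.10 without A (adjusted p = 0.763). *LCIE* was 0.51 without WT HL A. Relative to the median of all tested genes, which was 0.05 with TMM and 0.36 with library totals, *LCIB* was -0.74 and -0.73, *LCIC* was -0.66 and -0.65, and *CAS1* was 0.41 and 0.41 under the 2 scalings. Among all genes called in HL, 51.9% were higher in *phot*, and 67.4% with library totals.

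**Figure D5:**
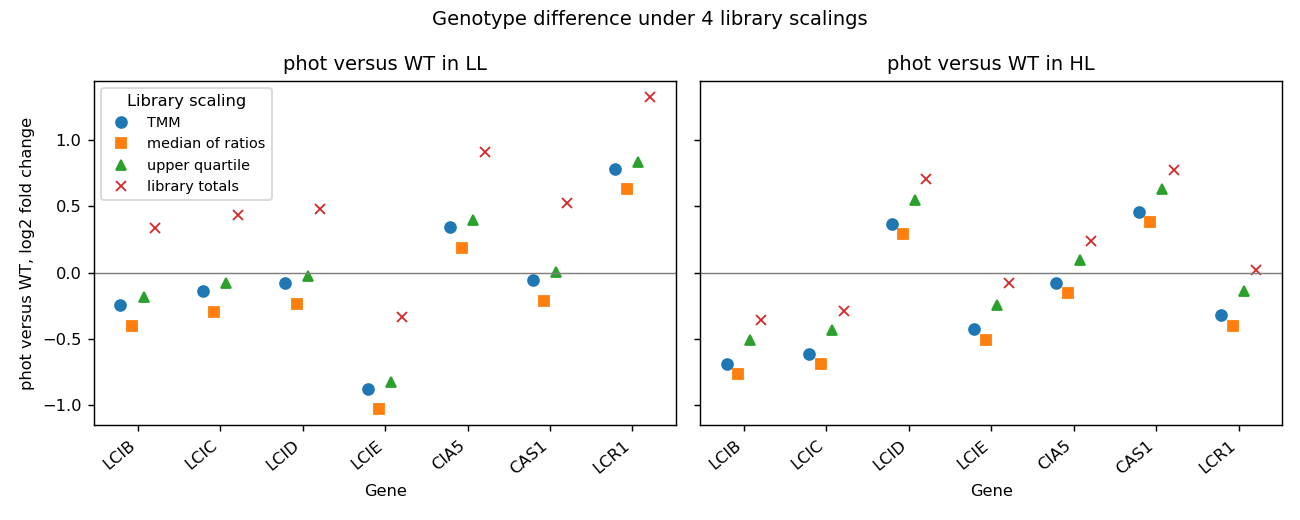
Log2 fold change of *phot* versus WT in LL and in HL for the 7 genes under 4 ways of scaling the libraries (TMM, median of ratios, upper quartile, library totals). In LL, *LCIB* moves from -0.24 with TMM to 0.34 with library totals, and in HL from -0.69 to -0.36, and the values of all 7 genes are higher with library totals than with TMM.

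The light response differed between the genotypes for *CIA5* and *CAS1*. The genotype by light interaction, the log2 light response in *phot* less that in WT, was -0.42 ± 0.14 for *CIA5* (edgeR, adjusted p = 0.019) and 0.51 ± 0.18 for *CAS1* (adjusted p = 0.0282). Of all tested genes 51.8% were called for this term, 23.5% as higher and 28.3% as lower, against 2 of the 7 genes (28.6%), 1 in each direction. The values of *LCIB*, *LCIC* and *LCIE* were -0.45 ± 0.28, -0.48 ± 0.26 and 0.45 ± 0.82, with edgeR adjusted p-values of 0.201, 0.136 and 0.663. Without WT HL A they were -0.03, -0.11 and 1.58, and with library totals *LCIB* (-0.70, edgeR, adjusted p = 0.0254) and *LCIC* (-0.72, 0.0177) were called. The *CIA5* call was lost with median-of-ratios factors (-0.34, edgeR, adjusted p = 0.0623), with upper-quartile factors (-0.30, 0.0696) and in the same 7 fits without 1 library as its LL call, where values ran from -0.33 to -0.21. The *CAS1* call was lost without WT HL C (0.44, edgeR, adjusted p = 0.0786) and with library totals (0.25, 0.193). Among all genes called for this term 45.3% were higher, and 28.8% with library totals.

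Levels were compared between the genes as CPM per kilobase of gene span, introns included. In WT LL the order was *LCIB* (574), *LCIC* (378), *CAS1* (60.8), *CIA5* (24.0), *LCR1* (13.0), *LCID* (7.76) and *LCIE* (2.41), and no neighbours in this order overlapped between their libraries. The order was the same in *phot* LL, from 485 for *LCIB* to 1.32 for *LCIE*, again with no overlap. In WT HL it became *LCIC* (1857), *LCIB* (1219), *LCID* (262), *CAS1* (115), *LCR1* (81.4), *CIA5* (22.4) and *LCIE* (20.3), where the pairs *LCIC* and *LCIB*, *CAS1* and *LCR1*, and *CIA5* and *LCIE* overlapped. *LCID* thus moved from the sixth place to the third, past both *CAS1* and the regulators. In *phot* HL the order was that of WT HL, from 1211 for *LCIC* to 15.1 for *LCIE*, and *CIA5* and *LCIE* were the 1 pair of neighbours that overlapped.

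Genes with a like pattern were ranked by Pearson's r of log2 CPM over the 12 libraries, as a description, since every gene with a large light response shares the same LL and HL split. The closest of 14250 genes to *LCID* was *LCIA*, which encodes a chloroplast envelope channel for bicarbonate (r = 0.999), followed by Cre06.g281600 (0.998), and among 65 other CCM genes the next was *CAH5*, a mitochondrial carbonic anhydrase gene (0.993). *LCIC* was closest to Cre14.g618400 (0.996) and Cre14.g621351 (0.995) and, among CCM genes, to *LCI11* (0.983) and *SMM7* (0.982). *LCIB* was closest to Cre12.g521400 (0.982) and Cre06.g251716 (0.976), and among CCM genes to Cre09.g416850 (0.945) and *LCI9* (0.940). For *LCIE* these were Cre17.g698400 (0.971), Cre06.g310500 (0.967), *CCP2* (0.951) and Cre16.g655050 (0.947).

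Among the regulators, *LCR1* was closest to Cre16.g688638 (0.991) and Cre03.g168100 (0.988), and among CCM genes to Cre16.g655050 (0.974) and *PSBP4* (0.933). *CAS1* was closest to Cre16.g656650 (0.981) and Cre17.g729950 (0.981), then to *CYC6* (0.956) and *LCIA* (0.95) on the CCM list. *CIA5* was closest to Cre16.g649750 (0.971) and Cre04.g228400 (0.959), and its nearest CCM genes were only *RBCS2* (0.785), which encodes the Rubisco small subunit, and *IGS1* (0.756). Between the members themselves r ranged from 0.963 for *LCIC* with *LCID* to -0.762 for *CIA5* with *CAS1*.

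The other genes of the pathway were taken from the CCM list of the study, which holds 66 genes beside the 7. Of the 65 tested, 33 rose and 24 fell in WT (median log2 fold change 0.30), and 30 rose and 10 fell in *phot* (0.24). The share called was 87.7% in WT and 61.5% in *phot*, against 73.9% and 58.9% of all tested genes. Between genotypes, 19 were higher and 31 lower in *phot* in LL (median -0.28), and 23 were higher and 29 lower in HL (-0.29). These were 76.9% of the list in LL and 80% in HL, against 72.3% and 73.5% of all tested genes. For the interaction, 24 were higher and 15 lower, with a median of 0.22, and 60% were called against 51.8% of all tested genes. The same shares of all tested genes are the background for the shorter lists below.

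Of 6 carbon transporters and channels on that list 5 were tested, and 4 rose and 1 fell in each genotype, with a median of 4.92 in WT and 7.20 in *phot*. The gene of the plasma membrane bicarbonate transporter *HLA3* rose by 4.92 ± 0.37 in WT and 7.20 ± 0.41 in *phot*, *LCI1*, another plasma membrane carbon transporter, by 4.76 ± 0.34 and 9.90 ± 0.43, and *LCIA* by 5.15 ± 0.37 and 5.87 ± 0.39 (edgeR, adjusted p at most 2.12e-08 for each). In LL, *HLA3* (-2.84), *LCI1* (-2.85) and *CCP2* (-2.74) were lower in *phot* and *RHP1* was higher (0.71; edgeR, adjusted p at most 0.000175), while *LCIA* differed by -0.19 ± 0.32 (adjusted p = 0.603). *RHP1*, a Rhesus protein gene, fell by 6.31 in WT and fell by 2.82 in *phot* (edgeR, adjusted p = 6.3e-12 and 4.09e-10). In HL, *LCI1* (2.30) and *RHP1* (4.20) were higher in *phot* and *CCP2* lower (-1.07), with edgeR adjusted p-values of at most 0.035, and *HLA3* (-0.56) and *LCIA* (0.52) were not called. The interaction passed for 4 of the 5 transporters, all higher in *phot*, with *LCIA* not called at 0.71 ± 0.45 (edgeR, adjusted p = 0.197). *RHP2* had at most 0.955 CPM in any library and was not tested.

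The carbonic anhydrase list holds 8 genes, *CAH2* to *CAH9*. *CAH1*, which the study names as controlled by LCR1, is not among them, so the counts and medians leave it out. Of these 8 genes, 3 rose and 4 fell in WT (median -0.16) and 4 rose and 1 fell in *phot* (median 0.43). Between genotypes, 1 was higher and 5 lower in *phot* in LL (median -0.84) and 2 higher and 4 lower in HL (median -0.38). Of 6 other low-CO2-inducible protein genes, 4 rose and 2 fell in WT (median 0.73) and 5 rose and 1 fell in *phot* (median 1.11). Of these 6, 5 were lower in *phot* in LL and 1 was not called (median -0.68), and 2 were higher and 4 lower in HL (median -0.63). The interaction was higher for 5 and lower for 1 of the 8 carbonic anhydrases (median 0.77), and higher for 2 and lower for 1 of the 6 others (median 0.19). In the chromosome 4 list, which includes *LCID* and *LCIE*, 5 of 6 genes rose and 1 fell in each genotype, with medians of 4.07 in WT and 5.31 in *phot*.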

How the data were processed

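Stranded mRNA was sequenced from 12 *Chlamydomonas* libraries, 3 per group, and groups were taken from the sample labels. The authors aligned reads with STAR (version 2.5.3a per the submitters' processing notes) to assembly version 5 from Phytozome and used HTSeq-count, set to the reverse strand, for reads per gene. The deposited values are raw gene counts without normalization, and 0 columns were left out. Column names give the group but no replicate number. Within-group pairs of libraries had a chi-square per degree of freedom between 7.69 and 67.7, so each library counted as 1 replicate.

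The 14251 genes with more than 1 CPM in at least 4 libraries were fitted with edgeR 4.0.16 (limma 3.58.1, R 4.3.3; TMM, quasi-likelihood test, 1 coefficient per group, Benjamini-Hochberg adjustment, threshold 0.05). The SE was derived from the F statistic. Log2 CPM used a prior count of 2. Ratios within libraries were compared by two-sided exact permutation tests. Alternatives were other scalings and filters, DESeq2 1.42.0, limma voom, and fits without 1 library; leaving out library A of both HL groups was added after seeing the data. Tests were checked on simulated data.

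Every member is named with its values, as are the carbon transporters and the chromosome 4 genes. The other lists are given by counts and medians. The genes of like pattern are the 2 closest among all tested and the 2 closest among CCM genes. Members and lists were chosen with earlier results of these data known. Positions are from RefSeq for Chlamydomonas_reinhardtii_v5.5, which held 17738 of 17741 identifiers. Gene symbols follow the study.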

Additional observations from a re-analysis of the deposited data

Results flagged for a closer look

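The light response of 2 of the 7 genes differed between the genotypes by the test of the difference itself, a share of 28.6% against 51.8% of all tested genes. The log2 change of *CIA5* in HL was lower in *phot* than in WT by a difference of -0.42 (edgeR, adjusted p = 0.019). This call was lost with median-of-ratios factors, upper-quartile factors or no filter and in 7 of the 12 fits without 1 library. *CIA5* fell in *phot*, and its lower value in WT passed the test in 6 of those 12 fits, with upper-quartile factors and in DESeq2 but not in the fit reported above. In each of these alternatives the median WT light response of all tested genes was lower as well. For *CAS1* the difference was 0.51 (edgeR, adjusted p = 0.0282), with a rise in both genotypes that was higher in *phot*, and the call was lost without WT HL C and with library totals.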

How the results depend on the processing

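No paired analysis was possible because the columns carry no replicate numbers. The light responses of *LCIC*, *LCID*, *LCIE* and *LCR1* kept their direction in both genotypes under every alternative, and their call in all but the test of *LCR1* in *phot* against a log2 change of 1. Over the 863 member values under alternatives, 763 kept direction and call, 60 lost the call, 26 gained it and 14 changed direction.

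With library totals, the LL values of *LCIB* (0.34), *LCIC* (0.43), *LCID* (0.48) and *CAS1* (0.52), the HL values of *CIA5* (0.24) and *LCR1* (0.016) and the WT light response of *CIA5* (0.15) changed direction, and with upper-quartile factors so did *CAS1* in LL (0.0058) and *CIA5* in HL (0.10). The number of the 7 genes called in LL was 2 as reported, 4 with library totals, 1 at an adjusted p of 0.01, and 0 with median-of-ratios factors, no filter, DESeq2 or a test against a log2 change of 1. For the interaction it was 2, against 4 with library totals, 1 with median-of-ratios factors, upper-quartile factors or no filter, and 0 at an adjusted p of 0.01 or against a log2 change of 1. The test against a log2 change of 1 called 4 of the genes for the light response in *phot* and 0 in HL, and over all genes 4095 (light, WT), 1507 (light, *phot*), 2894 (LL), 3551 (HL) and 1744 (interaction), against 10536, 8399, 10305, 10470 and 7382.

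In the fits without 1 library, 0 to 2 of the 7 genes were called in LL and 1 to 2 for the interaction, and the counts for the 2 light responses and HL stayed at 6 to 7, 6 to 7 and 3 to 4. In LL the median of all genes, 0.22, was 0.04 in 7 of the 12 fits, those without WT HL A or B, *phot* LL A or C, or any *phot* HL library. Over all 12 fits *LCID* in LL ran from -0.42 to 0.027, and was positive without WT LL B (0.027) or *phot* LL B (0.015). In HL, *LCIE* ran from -0.93 to 0.51 and *LCR1* from -0.68 to 0.10 over the 12 fits, with the positive values without WT HL A. The *LCR1* to *CIA5* ratio in HL ran from -0.52 to 0.17, and was positive without WT HL A (0.17) or *phot* HL B (0.14). Without library A of both HL groups, a choice made after seeing the data, *LCIE* in HL was 0.040 and *LCIC* in HL was not called (-0.47, edgeR, adjusted p = 0.0525). With 3 libraries per group, exact tests cannot go below p = 0.1. Reads shared by copies such as *LCID* and *LCIE* cannot be resolved from gene counts.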
